A study of Mus musculus with 24 samples.

Results

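The granule cells of the dentate gyrus were followed through 8 marker genes, Prox1, Dsp, C1ql2, C1ql3, Tdo2, Lct, Trpc6 and Calb1, listed by gene name. Their probes were found by matching the transcript accession of each array feature to a gene symbol. This gave 9 probes among the 39429 distinct probes of the array, 1 for each gene except Dsp, which had 2, and 8 genes among the 19751 symbols represented. Hippocampal RNA of offspring mice had been hybridised to single-color Agilent arrays, 6 arrays per group and 24 in all, each a pool of 4 mice. CD F1 and MD F1 were offspring of fathers that had eaten a control diet or a methyl donor-rich diet before mating, and CD F2 and MD F2 were the grandoffspring of such males. The offspring themselves ate control diet. The strain label was congenic for F1 and mixed for F2, both for hybrids of C57BL/6J and 129S6/SvEv. The age label was 4 weeks in every group, whereas the methods speak of adult mice. The F2 arrays carry a code, lh or rh, 3 arrays of each per diet, that the labels do not explain. It is not given whether lh and rh arrays hold different mice, so p-values measure the spread between these arrays.

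Granule cells are the principal neurons of the dentate gyrus. They receive input from the entorhinal cortex and send their axons, the mossy fibers, to the hilus and to CA3, and they are one of the few neuron types that are still formed in the adult mouse. Their markers are used to read how much dentate gyrus a dissected hippocampus holds, but in RNA of whole tissue fewer granule cells and less RNA per cell cannot be told apart.

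The genes have different roles. Prox1 (chr1:190118035-190170827) encodes the homeobox transcription factor that gives and keeps granule cell identity. C1ql2 (chr1:120340582-120343174) and C1ql3 (chr2:13001887-13010864) encode secreted C1q-like proteins of mossy fiber synapses. Calb1 (chr4:15881264-15906709) encodes calbindin, a calcium buffer of mature granule cells that some CA1 pyramidal cells and interneurons also make, and Trpc6 (chr9:8543867-8680752) encodes a cation channel opened by diacylglycerol. Tdo2 (chr3:81958412-81975728) encodes tryptophan dioxygenase, the first enzyme of the kynurenine pathway, and Lct (chr1:128284756-128328318) encodes lactase, better known from the gut. Dsp (chr13:38151294-38198577) encodes desmoplakin, a protein of desmosomes. Positions are those of the whole genes in the RefSeq annotation of GRCm38.p6. The place of each probe within its gene was not analysed here.

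C1ql3 and Lct were the pair with the second highest correlation over the F2 arrays described further on, and Calb1, the partner of C1ql3 in the highest, has no entry in the promoter table used. The 250 bases before the annotated start of both genes are therefore shown, from RefSeq (GRCm38.p6), minus strand, 5′ to 3′, C1ql3 at chr2:13010865-13011114 and Lct at chr1:128328319-128328568. Capitals mark matches to the E-box CANNTG, which reads the same on both strands and is the kind of site that factors such as Neurod1 bind.
C1ql3: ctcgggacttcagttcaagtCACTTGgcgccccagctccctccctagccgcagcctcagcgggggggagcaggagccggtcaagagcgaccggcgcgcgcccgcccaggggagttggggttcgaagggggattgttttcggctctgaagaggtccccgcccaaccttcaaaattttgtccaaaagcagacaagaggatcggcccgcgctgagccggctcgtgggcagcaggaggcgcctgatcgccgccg
Lct: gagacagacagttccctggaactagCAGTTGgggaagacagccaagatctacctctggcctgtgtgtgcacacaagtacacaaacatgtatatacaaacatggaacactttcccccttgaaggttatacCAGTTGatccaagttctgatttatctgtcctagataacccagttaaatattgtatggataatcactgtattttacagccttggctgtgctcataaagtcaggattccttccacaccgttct
The C1ql3 stretch held 1 match and the Lct stretch 2. Of all 32841 promoter stretches of 250 bases in the table, 66.2% held at least 1, so that a match there is common, and letters alone do not show a site in use. Entries existed for 7 of the 8 genes. The C1ql2 stretch held 1 match, the 2 annotated starts of Prox1 held 2 and 0, and those of Dsp, Tdo2 and Trpc6 held 0.

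All 9 probes gave signal in the hippocampal RNA. A total of 8 of them were well above background on all 24 arrays, the probe for Tdo2 was so on 23, the exception being 1 MD F2 array, and none was saturated. The samples were dissected hippocampus, and known markers of its other layers and of its neighbours were also read. In lists of such markers, 15 of 16 further granule cell genes, 7 of 7 CA1 genes, 5 of 7 CA3 genes, 7 of 8 thalamus genes, 7 of 8 striatum genes and 6 of 8 choroid plexus genes were well above background on all 24 arrays. Of all 19751 genes with a symbol, 13712 besides the markers were so too, counting genes with a value on every array. These counts alone therefore do not show which tissues the samples held. Between 27383 and 37013 of the 43020 non-control spots per array were well above background, and the median intensity ran from 148 to 318. By group the median intensity was 251 to 318 in CD F1, 167 to 262 in MD F1, 151 to 262 in CD F2 and 148 to 262 in MD F2. Of the 24 arrays, MD F1 replicate 6, CD F2 replicate 6 and MD F2 replicate 3 correlated least with the others of their generation (mean r 0.985 compared with 0.992 to 0.994 for the other F1 arrays, and 0.977 and 0.974 compared with 0.986 to 0.988 for the other F2 arrays). The difference between Y-linked genes and Xist, a measure of the sex of the pooled mice, lay between -2.30 and 0.16 (log2) on the F1 arrays. By diet it was -2.30 to -1.90 on the CD F1 arrays and -2.15 to 0.16 on the MD F1 arrays. In F2 it was -7.66 to -7.43 on 3 arrays, CD F2 replicates 3 and 5 and MD F2 replicate 6, and 5.23 to 7.26 on the other 9. The labels give no sex.

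**Figure D1:**
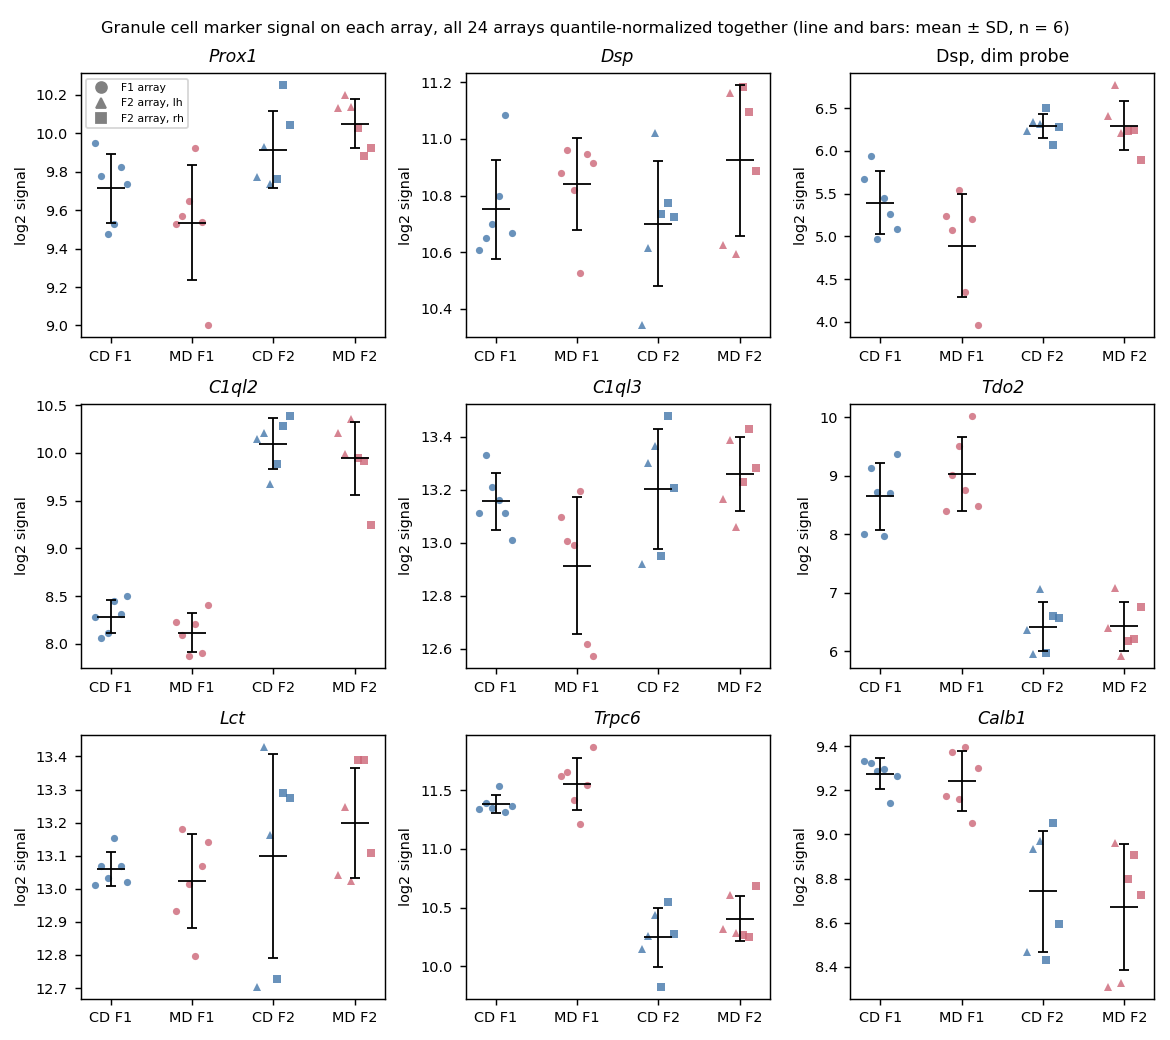
Signal of the 9 probes on each of the 24 arrays, as log2 processed intensity after quantile normalization of all arrays together, by group, with circles for F1 arrays, triangles and squares for F2 arrays coded lh and rh, and a line with bars for the mean ± SD of 6 arrays. Within each generation the CD and MD arrays overlapped for every probe, whereas F1 and F2 arrays were apart for Tdo2, Trpc6 and C1ql2.

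The first comparison asked whether the diet of the fathers was followed by a different level of granule cell transcripts in F1 hippocampus. None of the 9 probes passed an FDR of 0.1 in the limma fit over all probes, against 0.033% of the 39429 probes tested (13 called). That count over all probes was itself unsteady, at 0 with the slide as a block and between 0 and 152 when 1 array was left out, 152 being without MD F1 replicate 6, while the count of marker probes was 0 each time. At an unadjusted p under 0.05 the count was 1 of 9 compared with 14.4% of all probes. The log2 differences below are MD F1 minus CD F1, and signals are on the log2 scale after normalization within the generation.

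C1ql3 was the gene with the lowest p. Its signal ran from 13.26 to 13.60 (median 13.40) on the CD F1 arrays and from 12.82 to 13.46 (median 13.25) on the MD F1 arrays. Of the 6 MD F1 arrays, 4 lay below the lowest CD F1 array, replicates 2 and 3 narrowly and replicates 5 and 6 clearly, while replicates 1 and 4 lay among the CD F1 arrays, so that the groups overlapped. The difference was -0.25 (SE 0.11, 95% confidence interval -0.50 to -0.00094, unadjusted p = 0.0493, FDR 0.344). Within the 3 slides the differences were 0.009, -0.45 and -0.31. Without MD F1 replicate 6, one of the arrays that stood apart, the difference was -0.18 with an FDR of 0.438. Without scaling between arrays C1ql3 (-0.47), C1ql2 (-0.48) and the dim Dsp probe (-0.88) passed the FDR of 0.1. At that setting 7952 of all 39429 probes passed, and the median of all probes itself stood at -0.28.

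C1ql2, the other secreted mossy fiber protein, spanned 8.22 to 8.65 (median 8.45) on CD F1 arrays, against 8.02 to 8.56 (median 8.31) on MD F1 arrays, with a difference of -0.17 (SE 0.11, FDR 0.489). Prox1, the identity factor, ran from 9.62 to 10.10 (median 9.90) and from 9.14 to 10.07 (median 9.70), with a difference of -0.18 (SE 0.14, FDR 0.553). Both pairs of groups overlapped, and the lowest Prox1 value was again that of MD F1 replicate 6. Without it the difference of Prox1 was -0.074 (FDR 0.768).

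The channel and the calcium buffer gave differing signs. Trpc6 spanned 11.51 to 11.74 (median 11.55) on CD F1 arrays, against 11.40 to 12.09 (median 11.78) on MD F1 arrays, a difference of 0.18 (SE 0.10, FDR 0.430). The MD F1 arrays held both the lowest and the highest value, and the sign turned without scaling (-0.057). Calb1 ran from 9.29 to 9.48 (median 9.44) and from 9.20 to 9.54 (median 9.38). Its difference of -0.031 (SE 0.071, FDR 0.854) had a 95% confidence interval of -0.19 to 0.12, among the narrowest of the markers.

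The enzymes also kept within the spread between arrays. Tdo2 spanned 8.12 to 9.52 (median 8.86) on CD F1 arrays, against 8.55 to 10.17 (median 9.02) on MD F1 arrays, a difference of 0.38 (SE 0.32, FDR 0.591) with a wide interval of -0.31 to 1.07. Lct ran from 13.26 to 13.41 (median 13.30) and from 13.05 to 13.44 (median 13.30), a difference of -0.035 (SE 0.071, FDR 0.830) with an interval of -0.19 to 0.12. Tdo2 spread widely in both groups, and the MD F1 arrays of Lct enclosed those of CD F1.

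The probes for Dsp did not give the same sign. The bright one, averaged over 10 spots, spanned 10.76 to 11.26 (median 10.84) on CD F1 arrays, against 10.68 to 11.13 (median 11.07) on MD F1 arrays, a difference of 0.094 (SE 0.10, FDR 0.679) that was -0.16 without scaling. The dim one ran from 5.22 to 6.14 (median 5.58) and from 4.24 to 5.75 (median 5.37), a difference of -0.48 (SE 0.25, FDR 0.400). The groups overlapped on both probes, and 2 MD F1 arrays, replicates 4 and 6, read low on the dim one.

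Of the 16 further granule cell genes, 0 passed the FDR in F1 and 3 were lower at an unadjusted p under 0.05, compared with 5.54% of all genes that were lower and 7.82% that were higher at that p. The 3 were Npnt, which encodes the matrix protein nephronectin (-0.40, SE 0.12, FDR 0.214), Maml2, a Notch coactivator (-0.27, SE 0.11, FDR 0.314) and Synpr, the synaptic vesicle protein synaptoporin (-0.21, SE 0.093, FDR 0.338). The median difference was -0.051 over the 16 genes and -0.033 over the 8 markers, compared with 0.019 over all genes. The CA1 marker level was 10.56 ± 0.062 in CD F1 and 10.38 ± 0.13 in MD F1 and the thalamus level 9.23 ± 0.036 and 9.06 ± 0.086 (mean log2 signal of the list ± SD, n = 6). Of their members, 2 of 7 and 2 of 8 were lower at an unadjusted p under 0.05, next to the same 5.54% of all genes, and 0 of either passed the FDR. Their part in the marker values was not tested.

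**Figure D2:**
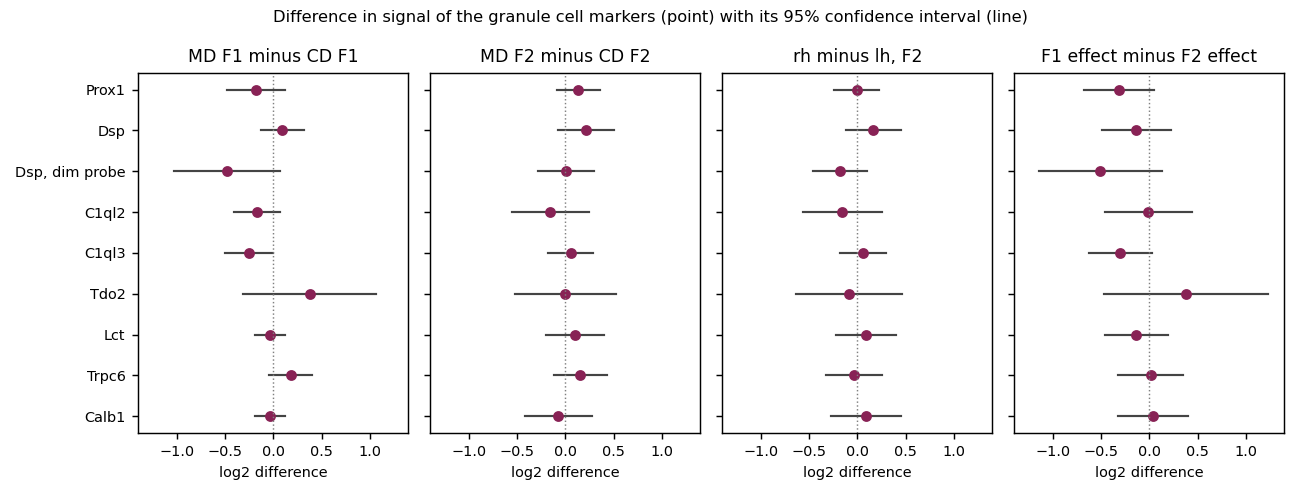
Differences in log2 signal of the 9 probes (points) with 95% confidence intervals (lines) for the diet in F1, the diet in F2, the rh against lh arrays of F2, and the diet effect in F1 minus that in F2. Among the 36 intervals, only that of C1ql3 in F1 did not include 0, with its upper end at -0.00094.

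For the diet of the grandfathers, none of the 9 probes passed the FDR in F2, and neither did any of the 39423 probes tested (0%). At an unadjusted p under 0.05 the count was 0 of 9, compared with 5.6% of all probes. Of the 9 differences, MD F2 minus CD F2, 7 were above 0, of which those of Tdo2 and of the dim Dsp probe turned below 0 without scaling. The bright Dsp probe had the lowest p. It spanned 10.19 to 10.85 (median 10.57) on CD F2 arrays, against 10.44 to 11.001 (median 10.82) on MD F2 arrays, a difference of 0.21 (SE 0.13, FDR 0.916), and the groups overlapped. The dim Dsp probe ran from 5.87 to 6.32 (median 6.11) and from 5.70 to 6.60 (median 6.05), with a difference of 0.0048 (SE 0.13).

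Prox1 spanned 9.59 to 10.10 (median 9.70) on CD F2 arrays, against 9.73 to 10.05 (median 9.93) on MD F2 arrays, a difference of 0.14 (SE 0.10, FDR 0.927). C1ql3 ran from 12.66 to 13.20 (median 12.99) and from 12.81 to 13.15 (median 12.99), with a difference of 0.056 (SE 0.11). C1ql2 ran from 9.53 to 10.24 (median 10.03) and from 9.10 to 10.20 (median 9.82), with a difference of -0.15 (SE 0.18). All 3 genes overlapped between the diets over most of their range.

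Trpc6 spanned 9.68 to 10.39 (median 10.12) on CD F2 arrays, against 10.11 to 10.53 (median 10.15) on MD F2 arrays, with a difference of 0.15 (SE 0.13). Calb1 ran from 8.28 to 8.91 (median 8.62) and from 8.15 to 8.81 (median 8.61), with a difference of -0.071 (SE 0.16). For both genes the SD within each F2 group, between 0.19 and 0.29, was larger than the difference between the diets.

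Tdo2 spanned 5.76 to 6.90 (median 6.29) on CD F2 arrays, against 5.71 to 6.92 (median 6.12) on MD F2 arrays, with a difference of 0.0010 (SE 0.24). Lct ran from 12.45 to 13.15 (median 12.96) and from 12.77 to 13.12 (median 12.92), with a difference of 0.10 (SE 0.14). The widest 95% confidence intervals in F2 were those of Tdo2, from -0.52 to 0.52, and of C1ql2, from -0.55 to 0.24, and the narrowest was that of Prox1, from -0.087 to 0.36.

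Of the 16 further granule cell genes, 0 passed the FDR in F2. Ntf3, the neurotrophin NT-3, was at 10.37 ± 0.18 in CD F2 and 10.65 ± 0.12 in MD F2 (0.28, SE 0.093, FDR 0.890). It was the one gene of the list with an unadjusted p under 0.05. Of all genes, 2.84% were higher and 2.81% lower at that p. Npnt had the largest difference of the list, -0.61, at 8.41 ± 0.19 in CD F2 and 7.81 ± 0.89 in MD F2. The choroid plexus level spanned 7.33 to 12.87 on the CD F2 arrays and 7.37 to 12.10 on the MD F2 arrays, with a median difference of -2.26 over its 8 genes, of which 0 passed. Its part in the marker values was not tested.

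The difference between the diet effects of the generations was fitted over all 24 arrays. None of the 9 probes passed the FDR, against 0.0127% of all probes (5 of 39423 called), and 0 had an unadjusted p under 0.05 compared with 8.29% of all probes. Prox1 was lower in MD F1 than in CD F1 and higher in MD F2 than in CD F2, by values that did not pass, and the difference of the effects was -0.31 (SE 0.17, 95% confidence interval -0.67 to 0.046, FDR 0.658). For C1ql3 it was -0.30 (SE 0.16, interval -0.63 to 0.030, FDR 0.642). The other probes ranged from -0.51 for the dim Dsp probe to 0.38 for Tdo2.

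The F2 arrays coded rh were compared with those coded lh with the diet as a further term. None of the 9 probes passed the FDR, against 0.0254% of all probes (10 of 39407 called), and 0 had an unadjusted p under 0.05, compared with 7.78% of all probes. Prox1 ran from 9.59 to 10.05 (median 9.88) on the lh arrays and from 9.61 to 10.10 (median 9.83) on the rh arrays, a difference of -0.0042 (SE 0.11, 95% confidence interval -0.24 to 0.23). This value covered opposite signs in the diets, 9.66 ± 0.10 on lh and 9.87 ± 0.25 on rh arrays of CD F2 and 10.01 ± 0.038 and 9.80 ± 0.075 in MD F2 (mean ± SD, n = 3), a difference between the diets that was not tested.

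C1ql3 ran from 12.66 to 13.11 (median 12.97) on lh and from 12.70 to 13.20 (median 12.99) on rh arrays, a difference of 0.061 (SE 0.11). The bright Dsp probe ran from 10.19 to 10.98 (median 10.46) and from 10.56 to 11.001 (median 10.67), a difference of 0.17 (SE 0.13, FDR 0.807). The dim Dsp probe differed by -0.18 (SE 0.13, FDR 0.787), so that its sign was again the opposite one. C1ql2 (-0.16), Tdo2 (-0.088), Trpc6 (-0.035), Lct (0.089) and Calb1 (0.093) all had intervals on both sides of 0. Without scaling the signs of the bright Dsp probe, C1ql3, Lct and Calb1 turned.

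The choroid plexus, which lies against the hippocampus, was also read by the code. All 8 of its genes were lower on rh arrays at an unadjusted p under 0.05, compared with 4.32% of all genes, with 0 past the FDR and a median difference of -3.15. Their level was 11.52 ± 1.68 on lh and 8.28 ± 1.93 on rh arrays (mean log2 signal of the list ± SD, n = 6), with ranges of 9.36 to 12.87 and 7.33 to 12.22 that overlapped. Of the 5 interneuron genes, 3 were higher on rh arrays at an unadjusted p under 0.05, compared with 3.9% of all genes. They were Pvalb by 0.37, Vip by 0.25 and Gad1 by 0.15, with 0 past the FDR. At the same p, 1 of 8 thalamus genes was lower, 1 of 8 striatum genes was higher and 1 lower, and 0 of 7 neocortex genes lay under it. The shares of all genes beside these counts are the same 3.9% higher and 4.32% lower. The granule cell markers had a median difference of 0.028, and the 16 further granule cell genes one of -0.051, compared with 0.0020 over all genes, with Stra6, a retinol transporter, at -0.43 (SE 0.15, FDR 0.476). The part of choroid plexus in these values was not tested.

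Markers of one cell type can vary together over arrays when the share of that tissue varies, and the covariation was therefore measured on deviations from the group means, which take out diet and generation. In F1 the 28 pairs of markers had a median Pearson r of -0.047 over 12 arrays, with 13 pairs above 0 and 15 below, and r ran from -0.85 to 0.79. In F2 the median was 0.43, with 22 pairs above 0 and 6 below, and r ran from -0.42 to 0.90. The jackknife SD of the median over arrays was 0.11 in F1 and 0.19 in F2. Without scaling between arrays, where overall brightness stays in the values, the medians were 0.41 and 0.84. The difference between the generations was not tested. In all, 10 pairs were above 0 in both generations, 3 were below 0 in both and 15 changed sign. The p-values below are from permutations of the arrays within groups, adjusted over the 56 pairs of both generations.

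**Figure D3:**
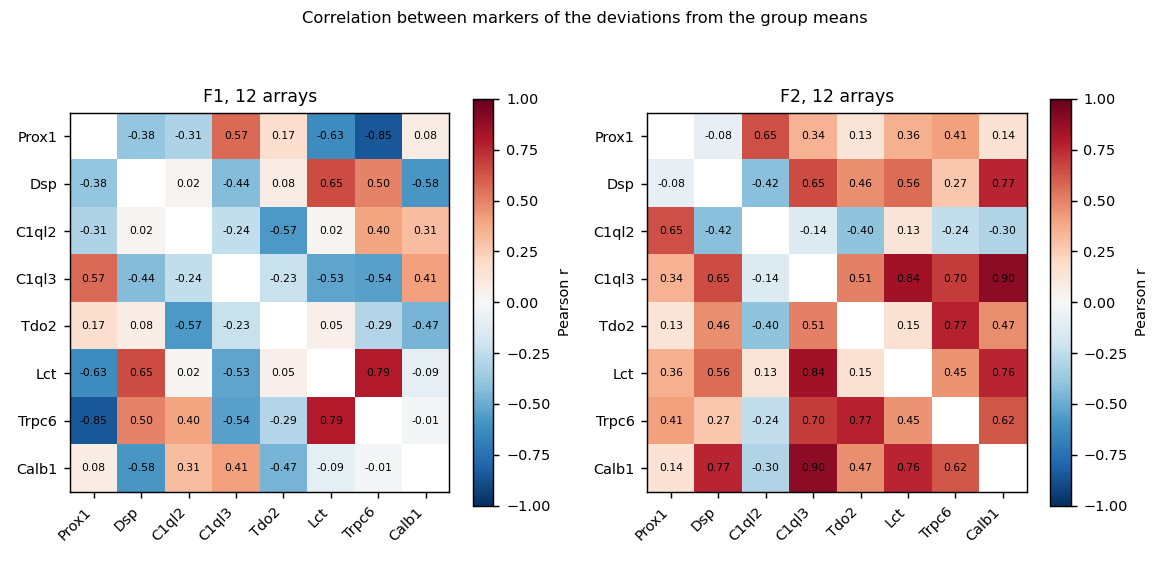
Pearson r between each pair of markers over the 12 F1 arrays (left) and the 12 F2 arrays (right), computed on deviations from the group means. Red is positive and blue negative, and the F2 panel is mostly red except along C1ql2.

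The only pair past an adjusted p of 0.05 was C1ql3 with Calb1 in F2. Pearson r was 0.898 (permutation p = 0.0001, adjusted p = 0.0056) and Spearman rho 0.888 (permutation p = 0.00025, adjusted p = 0.014). Without the 2 arrays farthest from the median of C1ql3, r was 0.889. With the slide as a block it was 0.838, and without the 3 arrays on which Xist was high it was 0.862 with an adjusted permutation p of 0.138. Leaving out 1 array at a time gave r from 0.881 to 0.934, and only without CD F2 replicate 5, the highest array for both genes, did the adjusted p pass above 0.05 (0.0907). CD F2 replicates 1 and 4 and MD F2 replicates 1 and 3 were the lowest arrays for both genes.

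Lct came next, with values that did not pass. Its r was 0.837 with C1ql3 (rho 0.790, permutation p = 0.00666, adjusted p = 0.0764, r 0.645 without the 2 farthest arrays) and 0.764 with Calb1 (rho 0.720, permutation p = 0.00538, adjusted p = 0.0764, 0.676 without them). Dsp reached an r of 0.765 with Calb1 (rho 0.685, permutation p = 0.00874, adjusted p = 0.0816, 0.649 without them). Tdo2 and Trpc6 formed another pair, with an r of 0.772 (rho 0.762, permutation p = 0.00682, adjusted p = 0.0764, 0.747 without them). With the sex measure in the model the r of Tdo2 and Trpc6 was 0.630, the lowest of its 24 alternatives. Without the 3 arrays high for Xist it was 0.711. These 4 pairs stayed above 0 under all 24 alternatives that were run, between 0.470 and 0.953. The 2 farthest arrays were chosen anew for each pair, by distance from the median of C1ql3, Lct, Dsp and Tdo2 in turn.

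C1ql2 stood outside this set, by values that did not pass. It had an r below 0 with 5 of the 7 other markers in F2. These were -0.42 with Dsp, -0.40 with Tdo2, -0.30 with Calb1, -0.24 with Trpc6 and -0.14 with C1ql3, its fellow in the family. The adjusted permutation p of these 5 was 0.43 to 0.81. With Prox1 r was 0.65 (adjusted permutation p = 0.108). Without the 2 arrays farthest from the median of C1ql2, r was 0.089 with Tdo2, 0.45 with Trpc6, 0.067 with C1ql3 and -0.24 with Calb1. With Dsp it was -0.28 without the 2 arrays farthest from the median of Dsp. With the mean of the standardized deviations of the 8 markers, itself included, C1ql2 correlated at 0.053 in F2, whereas C1ql3 did so at 0.94, Calb1 at 0.86, Lct at 0.85, Trpc6 at 0.74, Dsp at 0.64, Tdo2 at 0.56 and Prox1 at 0.54. In F1 these values were lower, between -0.012 for C1ql2 and 0.39 for Dsp and Lct. They are given as a description, since each gene is part of the mean.

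**Figure D4:**
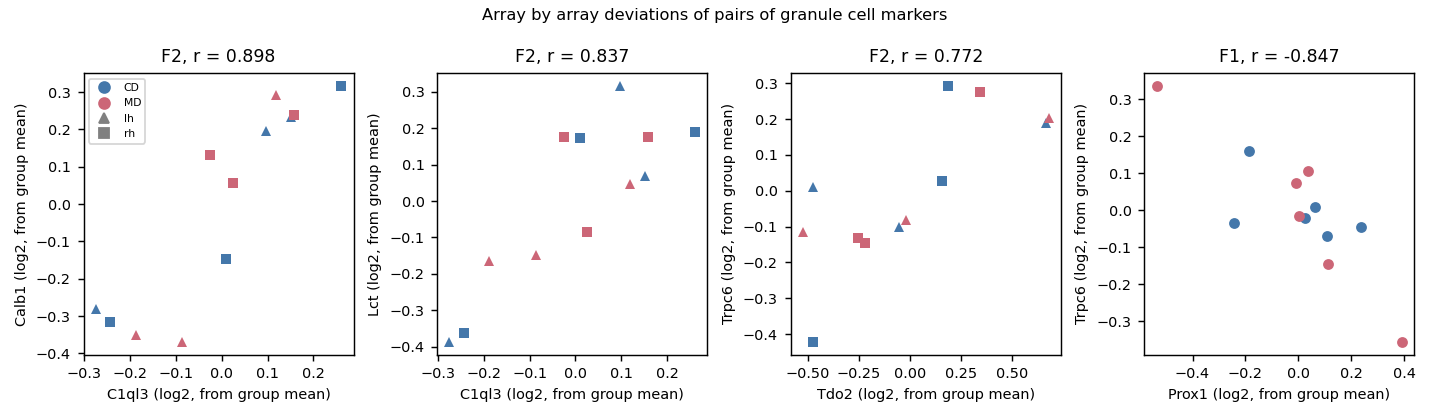
Deviations from the group mean (log2) on each array for C1ql3 against Calb1, C1ql3 against Lct and Tdo2 against Trpc6 in F2 and for Prox1 against Trpc6 in F1. Blue is CD and red MD, triangles and squares are F2 arrays coded lh and rh, and arrays of both codes and both diets lie at both ends of the cloud for C1ql3 against Calb1.

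In F1 none of the pairs passed, although with the slide as a block 2 did, compared with 4 in F2, and without scaling between arrays 7 did, compared with 23. The permutations did not keep arrays within their slide or allow for the slide means taken out. The p-values with that block can therefore be too low. The largest r in size in F1 was that of Prox1 with Trpc6 and was negative, at -0.847 (rho -0.755, permutation p = 0.00494, adjusted p = 0.0764). It fell to -0.470 without the 2 arrays farthest from the median of Prox1 and thus rested in part on them, and it was -0.10 without scaling between arrays. The extreme arrays were both MD F1, replicate 6 with the lowest Prox1 and the highest Trpc6 and replicate 4 with the highest Prox1 and the lowest Trpc6 of the group. In F2 the same pair had an r of 0.41 (permutation p = 0.244, adjusted p = 0.456). Lct and Trpc6 correlated at 0.795 in F1 (rho 0.664, permutation p = 0.0212, adjusted p = 0.108).

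The markers were also set against the mean level of lists of other genes on each array. None of the 272 relations between a marker and an array measure passed an adjusted p of 0.05, so the following values are a description. In F2 all 8 markers had a positive r with the 16 further granule cell genes (median 0.53, range 0.33 to 0.66) and with the immature granule neuron genes (median 0.28). All 8 had a negative r with the levels of thalamus (median -0.64, range -0.80 to -0.14), striatum (median -0.50), neocortex (median -0.57) and interneuron genes (median -0.33). Some signs turned without the 2 arrays farthest from the median of the marker. Trpc6 was then at 0.13 with striatum and 0.083 with neocortex, and Tdo2 at 0.41 with interneuron genes. Dsp was then at -0.26 with the immature granule neuron genes. The other values for these lists kept their sign. Other array measures leaned to one side too. In F2, 7 of the 8 markers had an r above 0 with the log2 median intensity (median 0.38) and 7 with the choroid plexus level (median 0.29). Only 1 had an r above 0 with the sex measure, Y-linked genes minus Xist (median -0.34). The part of these measures in the marker values was not tested. In F1 each of these medians lay between -0.14 and 0.086, with 3 to 6 of the 8 markers above 0. The lists share arrays and slides, and quantile normalization ties the genes of an array to one another.

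**Figure D5:**
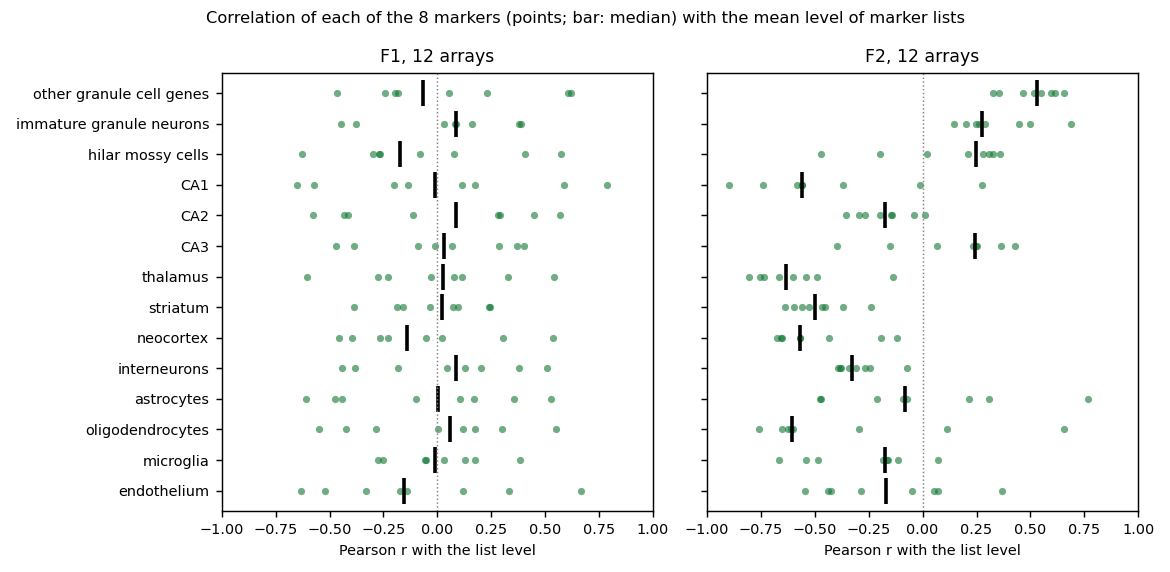
Pearson r over 12 arrays between each of the 8 markers (points) and the mean log2 level of 14 lists of marker genes (choroid plexus, whose F2 levels fall into separate clusters, is left out), in F1 (left) and F2 (right), on deviations from the group means, with the median as a bar. In F2 the points for thalamus, striatum, neocortex and interneurons lie below 0 and those for the granule cell lists above 0, while in F1 all 14 lists have points on both sides.

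The strongest of these relations was that of Calb1 with the CA1 genes in F2, with an r of -0.897 (rho -0.895, permutation p = 0.00078, adjusted p = 0.212) and of -0.847 without the 2 farthest arrays. C1ql3 had an r of -0.74 with the CA1 genes in F2 and of 0.79 in F1, values that did not pass and whose difference was not tested. C1ql3, Calb1 and Trpc6 had an r of -0.80, -0.73 and -0.76 with the thalamus genes in F2. Without the 2 arrays farthest from the median of the marker these were -0.75, -0.76 and -0.38. Oligodendrocyte genes had a median r of -0.61 with the markers in F2, with 2 of 8 above 0.

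Among 13712 genes well above background on all 24 arrays, those whose deviations were most like the mean of the 8 markers over the 24 arrays were Armc1 (r 0.81), Ttc30b (0.81), Ptpro (0.81), Bbs12 (0.79), Zfp386 (0.79), Neurod1 (0.79), Prdm8 (0.78), Nhlrc2 (0.78), Ddo (0.78) and Fam227a (0.78). Most of these values came from F2. For Armc1 r was 0.94 in F2 and 0.37 in F1. Neurod1, a transcription factor of young granule neurons, was the one gene of the 10 that stood in a list of granule cell genes and had an r above 0.5 in both generations, 0.74 in F1 and 0.85 in F2. The most opposite genes were Stx1a (-0.87), which encodes the presynaptic protein syntaxin 1A, Gdpd5 (-0.87), Ptp4a3 (-0.86), Nbl1 (-0.86) and Tmsb10 (-0.85). No p is attached to these values, since the genes were ranked by them.

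The generations were set side by side after the data had been seen, as CD F2 minus CD F1 with all 24 arrays normalized together. Generation, slide, scan day and strain label cannot be told apart here. Of all probes, 60.2% passed the FDR (23718 of 39423) and 39.1% had groups that did not overlap, and 5 of the 9 marker probes did both. Tdo2 was at 8.65 ± 0.57 in CD F1 and 6.42 ± 0.42 in CD F2 (mean log2 signal ± SD, n = 6), a difference of -2.23 (SE 0.29, FDR 8.2e-07). Trpc6 fell from 11.38 ± 0.080 to 10.25 ± 0.25, a difference of -1.14 (SE 0.12, FDR 2.1e-08), and Calb1 from 9.28 ± 0.069 to 8.74 ± 0.28, a difference of -0.53 (SE 0.12, FDR 0.00077).

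C1ql2 went the other way, from 8.29 ± 0.18 to 10.10 ± 0.27, a difference of 1.81 (SE 0.15, FDR 1.5e-09), and so did the dim Dsp probe, from 5.40 ± 0.37 to 6.29 ± 0.14, by 0.89 (SE 0.22, FDR 0.0013). The bright Dsp probe (-0.050, SE 0.12), Prox1 (0.20, SE 0.12), C1ql3 (0.046, SE 0.11) and Lct (0.038, SE 0.11) did not pass. In all, 2 of the 9 probes were higher, 3 were lower and 4 did not pass, next to 28.6% of all probes that were higher and 31.6% that were lower, so that the counts for the markers lay near those for the whole array. Without scaling the median of all probes shifted by -0.50, the dim Dsp probe was not called (0.34, FDR 0.351), and the bright Dsp probe (-0.47), C1ql3 (-0.58) and Lct (-0.58) were called lower, by about that shift. At that setting 7 of the 9 marker probes were called, compared with 24206 of all 39423 probes. The MD groups share no array with the CD groups, but lie on the same slides and were scanned on the same days. They gave -2.60 for Tdo2, -1.15 for Trpc6, -0.57 for Calb1, 1.82 for C1ql2 and 1.401 for the dim Dsp probe, all past the FDR. Prox1 at 0.51 (FDR 0.0011) and C1ql3 at 0.35 (FDR 0.012) also passed. Thus 7 of the 9 probes passed in the MD groups, compared with 23637 of all 39423 probes. Without MD F1 replicate 6 in the fit, Prox1 passed in the CD groups too (0.20, FDR 0.095). Of the 16 further granule cell genes, 10 were higher and 3 lower in CD F2 past the FDR, compared with 31.3% and 31.6% of all genes, among them Npnt (1.03), Stra6 (0.89) and Rfx3 (-0.93), a factor of ciliated cells.

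The spread between arrays was not alike in the generations for some markers. Calb1 had an SD of 0.070 in CD F1 and 0.14 in MD F1 compared with 0.28 in CD F2 and 0.29 in MD F2 (log2, n = 6, each generation normalized by itself). Lct had an SD of 0.054 and 0.14 in F1 and of 0.30 and 0.16 in F2. Tdo2 went the other way, with an SD of 0.57 and 0.63 in F1 and of 0.44 and 0.44 in F2. The differences in spread were not tested.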

How the data were processed

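The authors scanned each array and deposited the output of Agilent Feature Extraction (10.7.3.1 in the file headers). The values used are the processed signal intensity of each spot on a linear scale, from which the scanner software had taken background and spatial trend and which had not yet been made comparable across arrays. The deposited table of intensity values, which its values show to be quantile-normalized within each generation by the authors, served as an alternative. Spots marked non-uniform or population outliers were left out, log2 values were quantile-normalized within each generation, or over 24 arrays for comparisons across generations, and spots of a probe were averaged. The fit of group means used limma 3.58.1 (R 4.3.3) and Benjamini-Hochberg adjustment over all probes and a threshold of FDR 0.1. Probes with fewer than 2 measured arrays in a group were dropped. The brightest probe represents a gene. Correlations used deviations from group means, 100000 two-sided permutations within groups (Python 3.11.15), and gene lists were described without a set test. The fit was tested on simulated data. Named genes were the 8 markers, up to 4 further granule cell genes with the smallest p, and the 10 most and 5 least alike over arrays. Npnt, Stra6, Maml2 and Ntf3 came from this rule, and Synpr, Rfx3, Pvalb, Vip and Gad1 were named after their values were seen. The markers and gene lists were chosen with earlier results of these data known. The mean signal column being absent from the columns used, the normexp alternative took the median signal. Each value's precision is limited by the number of arrays.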

Additional observations from a re-analysis of the deposited data

Results flagged for a closer look

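Among 36 sets of 6 arrays (9 probes in 4 groups), 3 had 1 array apart from the others by the Dixon criterion, and chance flags about 1 set in 20. The bright Dsp probe read 10.68 (log2) on MD F1 replicate 4, against 10.98 to 11.13 on the other five. Trpc6 read 11.74 on CD F1 replicate 4, against 11.51 to 11.59. Calb1 read 9.29 on CD F1 replicate 5, against 9.41 to 9.48. All were F1 arrays, and none of them was an array that stood apart over all probes.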

How the results depend on the processing

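No marker probe was called in the F2 diet, code or diet by generation comparisons under any alternative, and in F1 the count was 0 except without scaling between arrays. There 3 of the 9 were called (the dim Dsp probe, C1ql2 and C1ql3), compared with 7952 of all 39429 probes. Without scaling the median of all probes shifted by -0.28 in F1 and -0.50 between the generations, which is left in the values by construction. Between the generations 5 to 7 of the 9 probes were called under all alternatives, where the count over all probes ran from 21401 to 24944. The dim Dsp probe was not called without scaling (FDR 0.351), and the bright one was (FDR 0.0657). The median r in F1 of -0.047 was 0.41 without scaling, -0.20 with a replicate block, and -0.17 to -0.038 when 1 array was left out, the low end without MD F1 replicate 2. In F2 it was 0.84 without scaling, 0.34 with a replicate block and 0.31 to 0.52 when 1 array was left out. For C1ql3 with Calb1 in F2, r was 0.773 with scaling to the 75th percentile (adjusted permutation p = 0.0581) and 0.904 without the arrays that stood apart (adjusted permutation p = 0.0588). In all, 20 of 24 alternatives kept an adjusted p under 0.05. Among them were the setting without scaling, the slide block, the replicate block and the sex measure. For the block and sex settings the permutations did not allow for the terms taken out, so their p-values can be too low. Without scaling 7 of 28 pairs passed in F1 and 23 in F2, with the slide as a block 2 and 4, with normexp 1 and 2, and with the sex measure in the model 0 and 4. The counts with the slide block and the sex measure carry the same limit. In F1 1 pair passed without CD F1 replicate 3.

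Over all probes the count called for the F1 diet was 13 and became 0 without any one of CD F1 replicates 1 to 5 or MD F1 replicates 2 to 5, 5 without CD F1 replicate 6, 34 without MD F1 replicate 1, 152 without MD F1 replicate 6, 540 with array weights and 7952 without scaling. For the code it was 10, 0 to 23 when 1 array was left out, 0 with the slide as a block and 189 with array weights, and for diet by generation 5, 3 to 41 and 543 with array weights. For the F2 diet it was 0, at most 1 when 1 array was left out, and 18 when all 24 arrays were fitted.

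Differences close to 0 changed sign, none past the FDR unless said. Without scaling, the F1 diet difference was -0.16 for Dsp and -0.057 for Trpc6, the F2 diet difference -0.11 for the dim Dsp probe and -0.12 for Tdo2, the code difference -0.060 for Dsp, -0.13 for C1ql3, -0.11 for Lct and -0.16 for Calb1, the diet by generation difference -0.15 for Trpc6 and -0.17 for Calb1, and the generation difference -0.20 for Prox1, -0.58 for C1ql3 (FDR 0.0188) and -0.58 for Lct (FDR 0.0128), the last pair close to the shift of all probes. With the 75th percentile, Lct was at 0.011 in F1, the dim Dsp probe at -0.066 and Tdo2 at -0.074 in F2, and C1ql3 and Lct both at -0.13 between generations. With normexp, Calb1 was at 0.00068 in F1, Tdo2 at -0.0041 in F2, Prox1 at 0.031 for the code, C1ql2 at 0.019 for diet by generation, and C1ql3 at -0.081 and Lct at -0.024 between generations. With array weights, the F2 diet difference was -0.0011 for the dim Dsp probe, -0.0053 for Tdo2 and 0.060 for Calb1, and the diet by generation difference of Calb1 -0.073. The authors' table gave -7.7e-05 for Tdo2 in F2. Adding the sex measure to the model put the dim Dsp probe at -0.048 in F2, and C1ql2 at 0.041 and Trpc6 at -0.028 for diet by generation. With the slide as a block, the code difference was 0.069 for Tdo2 and 0.048 for Trpc6. Within CD F2 it was 0.20 for Prox1, 0.17 for C1ql2 and -0.098 for Calb1. Without the 3 arrays high for Xist, Calb1 was at 0.054 in F2, Trpc6 at -0.049 and Calb1 at -0.085 for diet by generation, and C1ql3 at -0.063 and Lct at -0.025 between generations. Without the arrays that stood apart, diet by generation was -0.076 for Trpc6 and -0.011 for Calb1. In the MD groups the generation difference of Dsp was 0.083.

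Leaving out 1 array gave, for diet by generation, -0.15 to 0.072 for C1ql2, -0.048 to 0.10 for Trpc6 and -0.033 to 0.10 for Calb1; for the F1 diet, -0.062 to 0.0071 for Calb1 and -0.068 to 0.0098 for Lct; for the F2 diet, -0.13 to 0.0033 for Calb1, -0.094 to 0.088 for the dim Dsp probe and -0.13 to 0.13 for Tdo2; for the code, -0.080 to 0.033 for Prox1, -0.21 to 0.053 for Tdo2 and -0.10 to 0.055 for Trpc6; between generations, -0.0089 to 0.10 for C1ql3, -0.11 to 0.022 for Dsp and -0.028 to 0.12 for Lct. Differences that kept their sign moved too, such as C1ql2 (-0.24 to -0.014) and C1ql3 (0.00041 to 0.11) for the F2 diet and Prox1 (-0.26 to -0.074) and Tdo2 (0.18 to 0.52) for the F1 diet. The cause of these shifts was not tested. Same-numbered CD and MD arrays did not all deviate together (r -0.054 to 0.20 in F1 and -0.17 to 0.19 in F2, above 0.1 for 1 of 6 numbers and 3 of 6), and 3 of 12 F1 arrays and 4 of 12 F2 arrays correlated best with their own number, a hint from the data and not the design, so that the arrays are taken to share only a number. The replicate block changed no call of a marker probe. Over all probes it took the count from 13 to 0 for the F1 diet and from 5 to 0 for diet by generation. It also put 8 pairs of markers in F1 and 6 in F2 past the adjusted p in place of 0 and 1. With group and number taken out, same-numbered CD and MD arrays have mirrored deviations, which the permutations took as separate. The p-values of these pairs are therefore too low, and nothing is concluded from the counts. A block could not be fitted for the code, which the number holds.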
